A study of Mus musculus with 96 samples.

Results

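The liver transcriptome of F4 male mice whose F0 ancestors received tributyltin (TBT) was compared with that of F4 males from vehicle (DMSO) ancestors. The RNA-seq libraries labelled as F4, male and liver were taken, which gave 8 libraries of the 48 RNA-seq libraries and 96 samples of the series, with 4 TBT and 4 DMSO libraries. Each library came from the liver of 1 mouse, and the mice were chosen at random among non-siblings and non-cousins of each group. C57BL/6J F0 females drank water with 50 nM TBT or with 0.1% DMSO, both in 0.5% carboxymethyl cellulose, from 7 days before mating until the end of lactation. No later generation was given TBT, and matings within a treatment line avoided siblings down to F4. The F4 males of both groups ate a higher fat diet from week 19 to week 25, went back to standard chow for 8 weeks and were killed at 33 weeks of age. All livers therefore share the diet challenge, and the comparison is between descendants of exposed and of unexposed dams.

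TBT is an organotin that activates the retinoid X receptors (RXRs) and PPARγ, nuclear receptors that pair on DNA and switch on genes of fat storage. In the liver, RXRs are also the partners of PPARα, which drives fatty acid oxidation, of the liver X receptors, which drive lipogenesis and cholesterol export, and of the bile acid receptor FXR. Hepatocytes make fatty acids, cholesterol, bile acids, glucose and most plasma proteins, so the gene lists below follow those functions.

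The libraries held 13.0 to 15.2 M reads on genes in the DMSO group and 16.9 to 24.1 M reads in the TBT group, so the depths of the groups did not overlap. Values are CPM, read counts scaled to the TMM-adjusted library size, and 1 CPM corresponded to 12.6 to 25.6 reads. On the log2 scale, the correlation between any pair of libraries across genes was at least 0.977, and the lowest was between TBT_1 and TBT_4. Hepatocyte markers summed to 65456 to 76898 CPM, and albumin, the main plasma protein, was 45811 ± 4363 CPM (SD, n = 4) in DMSO and 46460 ± 1279 in TBT livers. Markers of exocrine pancreas summed to at most 0.888 CPM, those of skeletal muscle to at most 1.52 CPM and those of mesothelium to at most 1.03 CPM. The label of liver was thus met by its markers.

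Between TBT and DMSO livers, 0 of 12685 genes with a mean of at least 1 CPM (0%) passed limma's test with Benjamini-Hochberg adjustment at 0.05. The smallest adjusted p was 0.0684, for Themis, and the next was 0.998. At an unadjusted p under 0.05 there were 354 genes (2.79%), 203 higher and 151 lower in TBT, and limma-voom on the reads also called 0 genes, with 344 at that unadjusted level. With 1 library left out, the count at that level was 513 without DMSO_1, 399 without DMSO_2, 376 without DMSO_3, 289 without DMSO_4, 1108 without TBT_1, 204 without TBT_2, 393 without TBT_3 and 216 without TBT_4. Counts of list members given below without a library stand against these. Members and lists were chosen with earlier results of these data known. Members of a list were measured in the same livers and are not independent counts. Every TBT library was above every DMSO library for 128 genes (1.01%) and below for 119 (0.938%). By mean log2 level, 6510 genes were higher and 6175 lower in TBT livers. The median 95% interval of a gene reached 0.31 on the log2 scale to either side of its estimate, or 1.24-fold. For 12504 genes (98.6%) the whole interval lay within a 2-fold difference in either direction, and 7 genes had an estimate beyond 2-fold. A p above the threshold does not show that the groups were alike, and the values below are given as levels, with the log2 difference (log2 of CPM + 0.5, TBT minus DMSO), its standard error (SE) or its 95% interval (CI) from limma, which is not adjusted over genes. Except for Themis, the adjusted p of each gene named from this comparison was at least 0.998.

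Themis, which encodes a signalling adaptor of the T cell receptor first known from thymocyte selection, had the smallest p. It was at 2.03, 2.04, 1.92 and 2.14 CPM in the DMSO livers and at 4.88, 10.2, 6.21 and 5.33 CPM in the TBT livers. The groups did not overlap, and the lowest TBT liver was more than 2-fold above the highest DMSO liver. These levels rested on 26 to 32 reads per DMSO library and 78 to 187 per TBT library. The log2 difference was 1.44 ± 0.20 (SE; CI 1.02 to 1.87, adjusted p = 0.0684 by limma). Under the alternatives that were run, the difference stayed between 1.23 and 1.63 and the adjusted p between 7.92e-09 and 0.432. It was under 0.05 with reads thinned to equal depth (0.0218), without TBT_1 (0.0483) and with all 48 libraries in 1 fit. By limma-voom on the reads, the adjusted p was at least 0.408. With limma it was at least 0.366 without DMSO_1, 0.345 without DMSO_2, 0.315 without TBT_3 and 0.285 without DMSO_4. A filter at a mean of 5 CPM left Themis out. The defining T and NK cell markers, 8 genes that include Cd3d, Cd3e, Cd3g and Cd8a, summed to 1.27 to 2.74 CPM in DMSO and 1.52 to 6.15 CPM in TBT livers, and their part in the Themis values was not tested. The TBT liver with the highest Themis level, TBT_2, had a marker sum of 1.52 CPM, and TBT_4, with the highest marker sum, had 5.33 CPM of Themis. Themis lies on chromosome 10 from 28668360 to 28883820 (GRCm38.p6), and its mean over the 40 libraries of mesenchymal stem cells (MSCs) of the same series was 0.114 CPM. The fit of all 48 libraries takes its spread in liver to equal that in these MSCs, where Themis is near 0.

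**Figure D1:**
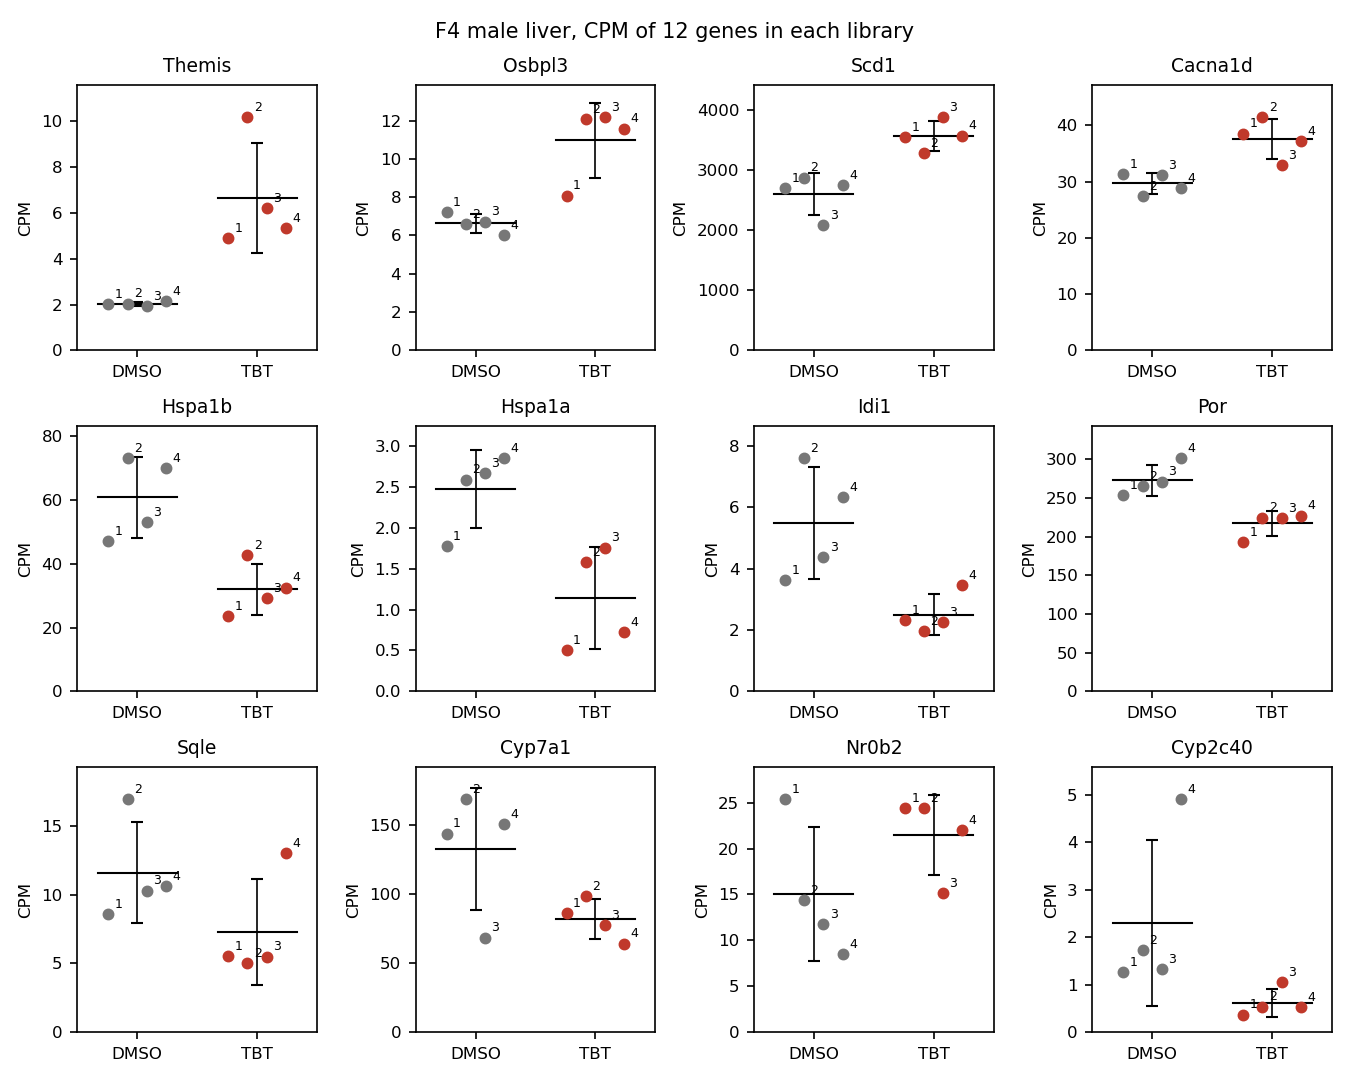
CPM of 12 genes in each F4 male liver library, with points numbered by replicate, the group mean as a horizontal line and the SD as an error bar (n = 4 per group; each y axis starts at 0). Themis, Osbpl3, Scd1 and Cacna1d were higher in every TBT than in every DMSO library, Hspa1b, Hspa1a, Idi1, Por and Cyp2c40 were lower, and the groups overlapped for Sqle, Cyp7a1 and Nr0b2.

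Other genes that were higher in each TBT than in each DMSO liver, taken by their p, were Osbpl3, Erdr1, Rnu12, Mre11a, Micall2, Scd1, Zfp704, Cacna1d and 1 gene with no symbol in the annotation used. Osbpl3 encodes an oxysterol-binding protein of membrane contact sites. It measured 7.23, 6.58, 6.73 and 6.01 CPM in DMSO and 8.08, 12.1, 12.2 and 11.6 CPM in TBT livers, a log2 difference of 0.67 ± 0.14 (CI 0.36 to 0.98). TBT_1 was nearer to the DMSO livers than to the other TBT livers. Rnu12, the U12 RNA of the minor spliceosome, was 18.7 ± 5.94 CPM (SD, n = 4) in DMSO and 30.5 ± 1.62 CPM in TBT livers (log2 difference 0.76, CI 0.32 to 1.198), and the difference was 0.50 without DMSO_1. Mre11a, a nuclease of double-strand break repair, was 4.11 ± 0.529 CPM and 5.85 ± 0.538 CPM (0.47, CI 0.17 to 0.76). Micall2, an actin-binding protein of tight junctions, was 1.21 ± 0.103 CPM and 2.05 ± 0.371 CPM (0.57, CI 0.21 to 0.93), and Zfp704, a zinc finger protein, was 17.2 ± 1.55 CPM and 22.0 ± 1.57 CPM (0.35, CI 0.11 to 0.58). Cacna1d, the pore subunit of an L-type calcium channel, was 29.7 ± 1.91 CPM and 37.5 ± 3.52 CPM (0.33, CI 0.11 to 0.55). Its span overlaps those of Chdh and Dcp1a, which are also expressed in liver, and reads were counted for every gene they overlap. Erdr1 was 0.971 ± 0.368 CPM and 2.99 ± 1.76 CPM (1.16, CI 0.52 to 1.80), with TBT_4 highest at 5.52 CPM. These 10 genes were picked for their separation, which is therefore a description of them.

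Heat shock genes encode chaperones that refold proteins, and are switched on by the factor HSF1 at short repeats called heat shock elements. Of 10 members tested, 9 had a lower mean in TBT livers, 4 had p under 0.05 (2.79% over all genes tested), and the median log2 difference was -0.23, beside 0.0045 over all genes tested. Without DMSO_2, 2 of the 10 had p under 0.05, and without the other livers in turn 3 to 5 did. These 10 genes share HSF1 and were measured in the same livers, so they are not independent counts. Hspa1a and Hspa1b, which are near-identical copies, are both among the 4. The largest differences were those of the stress-inducible Hsp70 pair, Hspa1b and Hspa1a. Hspa1b was at 47.0, 73.0, 53.0 and 69.9 CPM in DMSO and 23.6, 42.6, 29.2 and 32.5 CPM in TBT livers. The groups did not overlap, and the log2 difference was -0.92 ± 0.18 (CI -1.31 to -0.54). Hspa1a was at 1.78, 2.58, 2.66 and 2.85 CPM in DMSO and 0.501, 1.58, 1.76 and 0.720 CPM in TBT livers. Here too each TBT liver was below each DMSO liver (-0.92 ± 0.26, CI -1.49 to -0.36). Both genes lie on chromosome 17, in near-identical copies, and reads that map to both were not counted by the authors, so how the reads divide between the copies is uncertain. The 250 bases before each start site are shown to let the copies be compared, 5′ to 3′ from RefSeq on GRCm38.p6. Capitals mark GAANNTTC, a short form of the heat shock element, where N is any base. The motif reads the same on both strands. The windows stand at chr17:34972157-34972406 for Hspa1a and chr17:34959239-34959488 for Hspa1b, both on the minus strand.
Hspa1a: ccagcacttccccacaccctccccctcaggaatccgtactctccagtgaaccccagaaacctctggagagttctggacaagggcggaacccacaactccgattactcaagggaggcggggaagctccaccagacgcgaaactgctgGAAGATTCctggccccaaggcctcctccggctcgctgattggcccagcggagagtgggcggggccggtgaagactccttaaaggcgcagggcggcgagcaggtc
Hspa1b: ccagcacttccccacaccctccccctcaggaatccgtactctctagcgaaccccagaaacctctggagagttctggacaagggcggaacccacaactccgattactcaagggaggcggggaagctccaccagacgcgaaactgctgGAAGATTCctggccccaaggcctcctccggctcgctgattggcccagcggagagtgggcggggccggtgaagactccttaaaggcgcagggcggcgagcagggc

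The windows were identical at 247 of 250 bases, and each held 1 match to GAANNTTC. Among 32851 promoter windows of this length in the RefSeq table, 2199 (6.69%) held a match. Of the 8 heat shock genes with a window in the table, 6 held a match in at least 1 window. The first count is by window and the second by gene, so the shares are not in the same unit. Dnajb1 and Hsph1 held none, which says only that these letters are not in the window. Dnajb1, an Hsp40 co-chaperone, was 32.9 ± 4.10 CPM in DMSO and 26.5 ± 1.77 CPM in TBT livers (log2 difference -0.31, CI -0.55 to -0.065). Hsph1, an Hsp110 exchange factor, was 99.9 ± 14.1 CPM and 83.3 ± 6.49 CPM (-0.25, CI -0.50 to -0.0051). The groups overlapped for both. Averaged over the 10 genes, the deviation from each gene's mean was 0.03 to 0.28 on the log2 scale in the DMSO livers and -0.36 to -0.03 in the TBT livers. Without Hspa1a and Hspa1b it was 0.0069 to 0.19 and -0.30 to -0.01, with TBT_4 lowest.

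Cholesterol synthesis runs from acetyl-CoA through mevalonate and squalene, and its genes share the transcription factor SREBP-2. In TBT livers, 23 of the 24 genes tested had a lower mean than in DMSO livers, 5 had p under 0.05 (2.79% over all genes), 1 was below without overlap (0.938% over all genes), and the median log2 difference was -0.19. The genes share a known factor and were measured in the same livers, so the 24 are not independent counts. Idi1, the isomerase that makes the building block of isoprenoids, was at 3.61, 7.60, 4.36 and 6.33 CPM in DMSO and 2.32, 1.96, 2.26 and 3.46 CPM in TBT livers. The groups did not overlap, and the log2 difference was -0.97 ± 0.22 (CI -1.44 to -0.49). Sqle, the epoxidase that opens the sterol branch, was at 8.56, 16.9, 10.3 and 10.6 CPM in DMSO and 5.51, 5.00, 5.50 and 13.0 CPM in TBT livers. Thus 3 TBT livers were below all DMSO livers and TBT_4 was above 3 of them (-0.70 ± 0.27, CI -1.28 to -0.12). The other 3 genes with p under 0.05 were Cyp51, the lanosterol demethylase (68.0 ± 19.0 and 47.2 ± 7.63 CPM; -0.49), Mvk, mevalonate kinase (4.799 ± 1.22 and 3.09 ± 0.926 CPM; -0.56), and Fdps, farnesyl diphosphate synthase (14.0 ± 4.18 and 9.44 ± 2.55 CPM; -0.55, or -0.36 without DMSO_2).

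The list varied between single livers as much as between groups. Its mean deviation was 0.50 in DMSO_2, between -0.0019 and 0.03 in the other DMSO livers, 0.28 in TBT_4 and between -0.36 and -0.23 in the other TBT livers. Without DMSO_2, 18 of the 24 genes had a lower mean in TBT, 1 had p under 0.05 and the median was -0.13. Without TBT_1 2 and without TBT_3 3 had p under 0.05. Without TBT_4, all 24 had a lower mean, 9 had p under 0.05 and the median was -0.30.

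**Figure D2:**
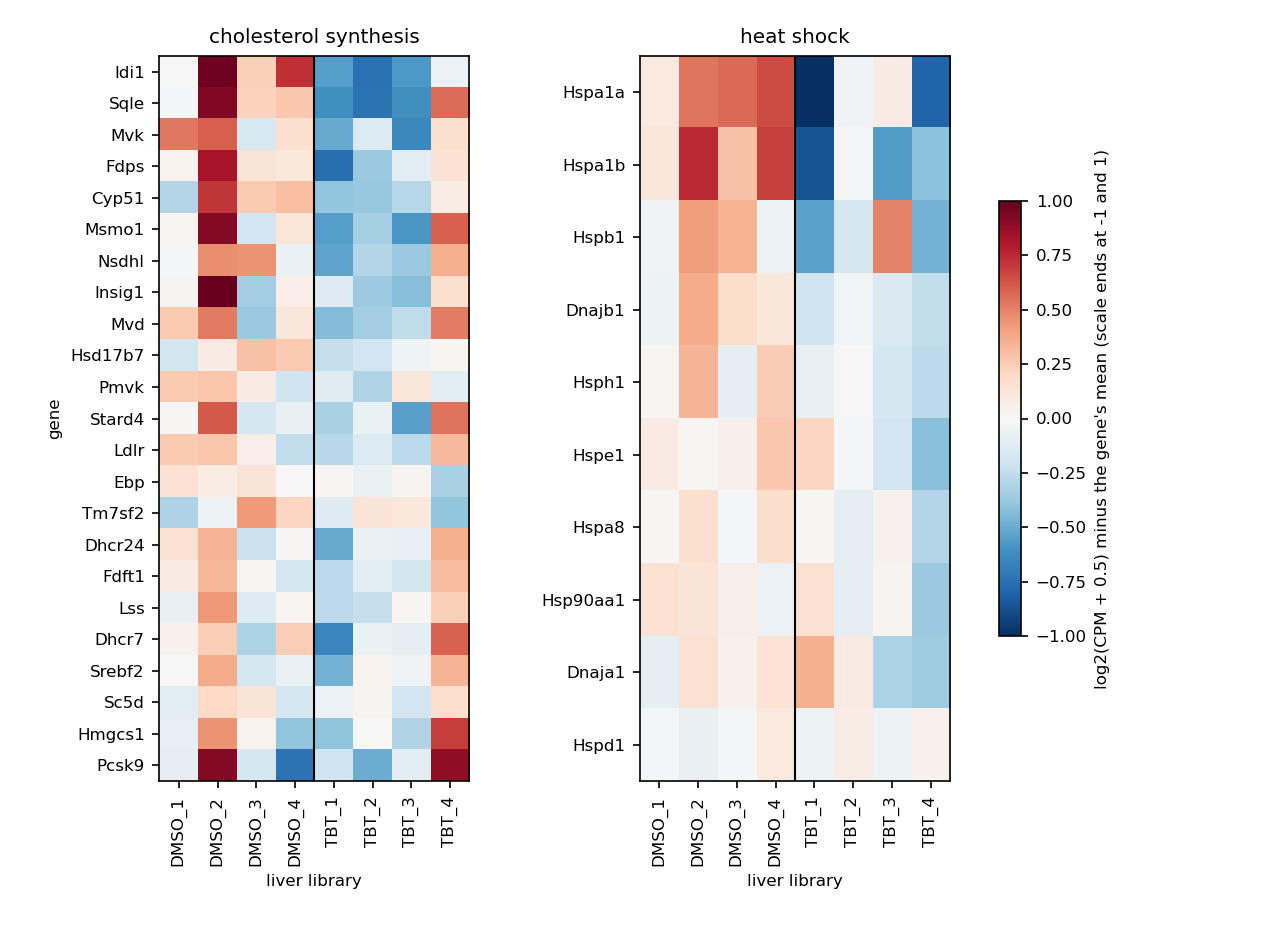
Each gene's log2(CPM + 0.5) minus its mean over the 8 liver libraries, for the cholesterol synthesis and heat shock lists (rows, genes reported here, ordered by the TBT minus DMSO difference; columns, libraries; colours end at -1 and 1). DMSO_2 and TBT_4 stand high across most cholesterol genes, and Hspa1a and Hspa1b are lower in each TBT column than in each DMSO column.

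Bile acids are made from cholesterol, and the first step is held back by FXR (Nr1h4) through the corepressor SHP (Nr0b2). Of 18 bile acid genes tested, 11 had a lower mean in TBT livers, 2 had p under 0.05 (2.79% over all genes), and the median log2 difference was -0.12, or -0.0080 without TBT_1 and -0.046 without TBT_4. The count at p under 0.05 was 4 without DMSO_1, 1 without DMSO_2 or DMSO_3, and 0 without DMSO_4 or TBT_4. Cyp7a1, the rate-limiting enzyme, was at 143, 168, 68.4 and 150.1 CPM in DMSO and 86.3, 98.2, 77.6 and 64.1 CPM in TBT livers. Thus 3 DMSO livers were above all TBT livers, and DMSO_3 lay among the TBT values (-0.64 ± 0.23, CI -1.14 to -0.13). Slco1a1, a sinusoidal organic anion carrier, was 496 ± 46.3 CPM and 400.1 ± 68.0 CPM (-0.32, CI -0.60 to -0.037). Nr0b2 was at 25.4, 14.4, 11.8 and 8.54 CPM in DMSO and 24.4, 24.4, 15.2 and 22.0 CPM in TBT livers. The groups overlapped through DMSO_1 alone, which was above all TBT livers (0.59 ± 0.26, CI 0.028 to 1.15), and without DMSO_4 the difference was 0.36. Nr1h4 was 118 ± 5.93 CPM in DMSO and 101.4 ± 9.14 CPM in TBT livers (-0.22, CI -0.43 to -0.014).

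Among the 23 nuclear receptors tested, 11 had a higher and 12 a lower mean in TBT livers, with a median log2 difference of -0.01, while quantile normalization gave 14 higher and 9 lower and a median of 0.01. The 3 with p under 0.05 (2.79% over all genes) were Nr1h4, Nr0b2 and Esrra, an orphan receptor of mitochondrial genes (24.03 ± 4.22 CPM in DMSO and 19.5 ± 2.14 CPM in TBT, -0.29, or -0.18 without DMSO_4). The count was 0 without DMSO_4, TBT_2 or TBT_4, 0 without the mean trend in limma, and 1 without DMSO_1. The receptors that TBT binds did not stand out. Pparg was 5.83 ± 1.62 CPM in DMSO and 6.01 ± 0.337 CPM in TBT livers (CI -0.32 to 0.48). Rxra was 263 ± 42.2 CPM and 259 ± 16.8 CPM (CI -0.27 to 0.25). Rxrb was 27.4 ± 2.66 CPM and 23.4 ± 2.18 CPM (CI -0.46 to 0.02), and Rxrg was 3.31 ± 1.01 CPM and 3.39 ± 0.770 CPM (CI -0.41 to 0.50). The partner Ppara was 385 ± 16.7 CPM and 402 ± 46.6 CPM (CI -0.17 to 0.29). For the liver X receptors, Nr1h3 was 75.5 ± 3.01 CPM and 67.1 ± 5.85 CPM (CI -0.38 to 0.03) and Nr1h2 was 21.6 ± 1.44 CPM and 20.8 ± 2.90 CPM (CI -0.31 to 0.20). Each of these intervals holds 0 and leaves out a 2-fold difference. The span of Esrra overlaps that of Trmt112, and that of Nr1h3 overlaps that of Acp2. The same holds for 4 genes named further on, Srebf1 (with Rai1), Atp5a1 (Haus1), Hspa5 (Rabepk) and Col4a1 (Col4a2). Reads of such pairs could not be told apart there without strand.

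**Figure D3:**
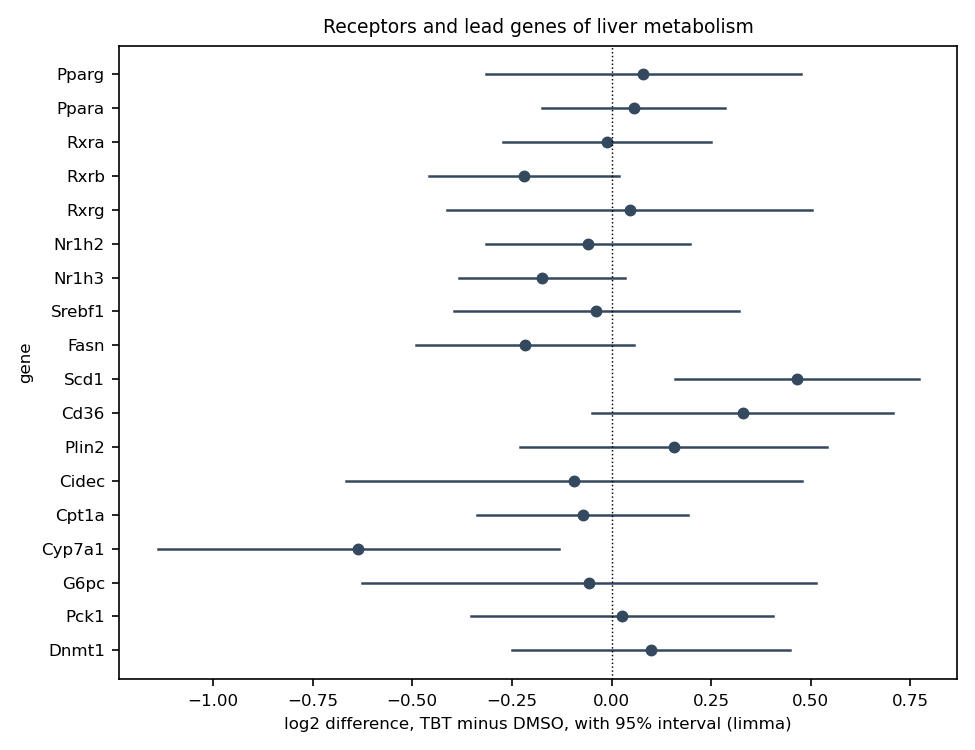
Log2 difference (TBT minus DMSO, points) and its 95% interval from limma (lines) for nuclear receptors and lead genes of liver metabolism in F4 male liver (n = 4 per group). The intervals of Scd1 (0.16 to 0.77) and Cyp7a1 (-1.14 to -0.13) leave out 0, before adjustment over the 12685 genes, and those of the other 16 genes drawn hold it. Nr1h4, Nr0b2 and Esrra are not drawn.

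Lipogenesis turns citrate into fatty acids that are then desaturated and built into triglyceride. Scd1, the desaturase that makes oleate, was at 2699, 2880, 2092 and 2752 CPM in DMSO and 3559, 3284, 3887 and 3581 CPM in TBT livers. Each TBT liver was above each DMSO liver, with a log2 difference of 0.47 ± 0.14 (CI 0.16 to 0.77). The rest of the list did not share this separation. Over the 18 members tested, 8 had a higher and 10 a lower mean in TBT, 1 had p under 0.05 (2.79% over all genes) and the median was -0.03. The count was 3 without TBT_1 and 2 without DMSO_3 or TBT_4. Fasn, the fatty acid synthase, was 119.7 ± 10.2 CPM in DMSO and 104 ± 17.5 CPM in TBT livers (-0.22, CI -0.49 to 0.06), and the difference was -0.098 without TBT_1. Srebf1, which encodes the main lipogenic factor, was 25.1 ± 6.31 CPM and 24.03 ± 3.30 CPM (CI -0.40 to 0.32).

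For triglyceride storage, 12 of 25 genes had a higher and 13 a lower mean in TBT livers, 0 had p under 0.05, and the median log2 difference was -0.02. Cd36, a fatty acid translocase, was at 167, 166, 159 and 107 CPM in DMSO and 246, 176, 192 and 141 CPM in TBT livers. The groups overlapped, since TBT_4 lay below 3 DMSO livers (0.33, CI -0.05 to 0.71). The Cd36 difference was 0.18 without DMSO_4 and 0.19 without TBT_1. Plin2, the coat protein of hepatic lipid droplets, was 743 ± 203 CPM and 812 ± 124 CPM (CI -0.23 to 0.54), and Cidec, which fuses droplets, was 46.7 ± 17.8 CPM and 41.8 ± 10.9 CPM (CI -0.67 to 0.48). Fabp1, the fatty acid binding protein of hepatocytes, was 3910 ± 715 CPM and 4290 ± 1424 CPM (0.10, CI -0.38 to 0.57).

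Fatty acid oxidation, which feeds ketone formation in fasting, had 11 of 29 genes higher and 18 lower in mean, 0 with p under 0.05, and a median of -0.07. Under quantile normalization 16 were higher and 13 lower, and the median was 0.0024, while without DMSO_2, DMSO_4 or TBT_4 6 were higher and 23 lower. Cpt1a, the carnitine gate of mitochondria, was 696 ± 78.3 CPM in DMSO and 662 ± 72.4 CPM in TBT livers (CI -0.34 to 0.19). Cyp4a14, an omega-hydroxylase under PPARα, was 5286 ± 644 CPM and 5089.9 ± 599 CPM (CI -0.39 to 0.28). In glucose metabolism, 9 of 20 genes were higher and 11 lower in mean, 0 with p under 0.05, and the median was -0.07, but without DMSO_4 it was 0.048, with 11 higher and 9 lower. It was -0.11 without DMSO_2 or TBT_3 and -0.036 without TBT_2, and without DMSO_3 3 genes had p under 0.05. G6pc, which releases glucose, was 307 ± 119.98 CPM and 286 ± 74.1 CPM (CI -0.63 to 0.51). Pck1, which commits oxaloacetate to glucose, was 2237 ± 240.4 CPM and 2323 ± 574 CPM (CI -0.35 to 0.41). In the lipoprotein list, 5 of 18 genes were higher and 13 lower in mean, 0 with p under 0.05, with a median of -0.06. Under quantile normalization 9 were higher and 9 lower, with a median of 0.0077, and without DMSO_1 the split was also 9 and 9. Apob, the scaffold of very low density lipoprotein, was 25858 ± 1523 CPM and 24488 ± 1730.3 CPM (CI -0.50 to 0.34), and Apoe was 8989 ± 1277 CPM and 8585 ± 859 CPM (CI -0.43 to 0.31).

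In xenobiotic metabolism, 11 of 22 genes had a higher and 11 a lower mean in TBT livers, 3 had p under 0.05 (2.79% over all genes), and the median was 0.01. Without TBT_1, 6 had p under 0.05, and without the other livers in turn 2 or 3 did. Por passes electrons to all microsomal cytochromes P450. It was at 254, 265, 271 and 302 CPM in DMSO and 193, 225, 224 and 227 CPM in TBT livers. The groups did not overlap, and the log2 difference was -0.33 ± 0.10 (CI -0.54 to -0.11). Cyp2a5, a coumarin hydroxylase, was 138 ± 28.7 CPM and 187 ± 43.1 CPM (0.43, CI 0.059 to 0.80), and Cyp3a13 was 189 ± 17.1 CPM and 155 ± 24.1 CPM (-0.29, CI -0.56 to -0.028), both with overlapping groups. Outside this list, Cyp2c40, an arachidonate-metabolizing P450, was at 1.27, 1.72, 1.33 and 4.90 CPM in DMSO and 0.376, 0.544, 1.05 and 0.528 CPM in TBT livers. Each TBT liver was below each DMSO liver (-1.18 ± 0.33, CI -1.89 to -0.48), and without DMSO_4 the difference was -0.81. Cyp2c genes are close paralogs, so part of its reads may map to more than 1 gene. Fmo2, a flavin monooxygenase, was 22.5 ± 4.09 CPM and 16.3 ± 1.41 CPM (-0.44, CI -0.73 to -0.16), again without overlap.

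The remaining genes that were lower in each TBT than in each DMSO liver and had the smallest p were Cldn5, Tpst1, Serpina11 and Plekho1. Cldn5, the claudin of endothelial tight junctions, was 3.61 ± 0.440 CPM in DMSO and 2.24 ± 0.356 CPM in TBT livers (-0.58 ± 0.16, CI -0.93 to -0.24). The 7 endothelial markers tested also had lower means in TBT livers, by 0.11 to 0.22 on the log2 scale, and the part of endothelial RNA in the Cldn5 values was not tested. Without TBT_2, 2 of the 7 had a lower mean. Tpst1, a protein tyrosine sulfotransferase of the Golgi, was 11.5 ± 0.782 CPM and 8.69 ± 0.353 CPM (-0.38 ± 0.11, CI -0.62 to -0.15). Serpina11, a serpin made in liver, was 32.5 ± 3.29 CPM and 24.2 ± 3.39 CPM (-0.42 ± 0.12, CI -0.69 to -0.16). Plekho1, a casein kinase interacting protein, was 3.10 ± 0.538 CPM and 1.98 ± 0.153 CPM (-0.53 ± 0.16, CI -0.88 to -0.18).

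Growth hormone pulses set the male pattern of liver genes, such as the major urinary proteins. In the list of growth hormone axis and sex-biased genes, 4 of 15 genes tested had a higher and 11 a lower mean in TBT livers. The log2 differences ran from -0.87 to 0.76, 2 genes had p under 0.05 (2.79% over all genes), and the median was -0.22, or -0.12 without DMSO_4. The count at p under 0.05 was 5 without DMSO_1, 4 without TBT_3, 1 without TBT_4 and 0 without DMSO_2. Hsd3b5, a male-biased steroid dehydrogenase, was at 7.23, 18.4, 14.1 and 13.1 CPM in DMSO and 8.27, 7.45, 8.66 and 8.93 CPM in TBT livers. The DMSO liver with the lowest value, DMSO_1, was below all TBT livers, and the other 3 were above them (-0.57 ± 0.21, CI -1.03 to -0.11). Igfals, the acid-labile subunit that carries IGF-1 in plasma, was 59.9 ± 10.7 CPM and 45.9 ± 5.91 CPM (-0.37, CI -0.67 to -0.068). Mup20, the pheromone darcin, was at 9731, 13528, 10912 and 17635 CPM in DMSO and 14004, 7504, 8121 and 8155 CPM in TBT livers, with TBT_1 among the DMSO values (-0.47, CI -0.99 to 0.062), and was named after its values were seen.

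Acute phase genes encode plasma proteins of the response to inflammation. Of 26 tested, 4 had a higher and 22 a lower mean in TBT livers, 3 had p under 0.05 (2.79% over all genes), and the median was -0.17, or -0.11 without DMSO_2. The count at p under 0.05 was 8 without DMSO_3 and 1 without TBT_2 or TBT_4. Itih3, which links hyaluronan, was at 831, 743, 734 and 743 CPM in DMSO and 614, 614, 663 and 627 CPM in TBT livers, without overlap (-0.28 ± 0.10, CI -0.49 to -0.061). Hpx, the heme carrier hemopexin, was 2810.3 ± 304 CPM and 2199 ± 357 CPM (-0.36, CI -0.68 to -0.041), and Apcs, the pentraxin serum amyloid P, was 48.5 ± 11.9 CPM and 37.3 ± 3.12 CPM (-0.35, CI -0.67 to -0.023; -0.20 without DMSO_2). Saa1, which rises most in acute inflammation, was 19.0 ± 17.1 CPM and 10.6 ± 3.69 CPM (CI -1.42 to 0.33), with DMSO_2 at 44.6 CPM, and was also named after its values were seen.

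Interferon and antigen presentation genes went the other way in their means. Of 25 tested, 22 had a higher and 3 a lower mean in TBT livers, 2 had p under 0.05 (2.79% over all genes), and the median was 0.16. Without DMSO_1 4 had p under 0.05, without TBT_2 0, without TBT_3 3, and without any other single liver 1. Isg15, a ubiquitin-like protein, was 1.85 ± 0.917 CPM in DMSO and 2.80 ± 0.396 CPM in TBT livers (0.56, CI 0.052 to 1.06). Oas2, an oligoadenylate synthetase, was at 2.85, 1.88, 2.59 and 2.45 CPM in DMSO and 1.63, 1.41, 1.87 and 1.68 CPM in TBT livers, which is the opposite direction and without overlap (-0.45, CI -0.81 to -0.087). By liver, the mean deviation of the list was 0.25 in DMSO_1, 0.29 in TBT_1 and 0.27 in TBT_4, and from -0.34 to -0.02 in the other 5, so the high livers were found in both groups. The median of the list was 0.055 without TBT_1, 0.066 without DMSO_2 and 0.26 without TBT_3.

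The 21 oxidative phosphorylation genes had 20 lower and 1 higher mean in TBT livers, with differences of -0.25 to 0.0049 and a median of -0.11, and 0 had p under 0.05. Atp5b and Atp5a1, subunits of ATP synthase, were 860.2 ± 73.0 and 754 ± 56.0 CPM in DMSO and 748 ± 109.2 and 668 ± 45.4 CPM in TBT livers. The deviation of the list was lowest in TBT_4, at -0.27, and without TBT_4 the median was -0.07 and 15 of 21 genes were lower. Without TBT_1 it was -0.19 and 20 were lower. In the unfolded protein and integrated stress response list, 3 of 18 genes were higher and 15 lower in mean, 0 with p under 0.05, with a median of -0.12, or 0.0015 without DMSO_2. The median was -0.22 without DMSO_1, when 17 of 18 were lower and 5 had p under 0.05, and -0.20 without TBT_3. Hspa5, the chaperone BiP, was 944 ± 239.7 CPM and 787 ± 153 CPM (CI -0.64 to 0.15), and Hsp90b1 was 959.6 ± 255 CPM and 896 ± 118 CPM (CI -0.45 to 0.31). Of 16 immediate early genes, 11 were higher and 5 lower in mean, 2 with p under 0.05 (2.79% over all genes), with a median of 0.09, or 0.038 without DMSO_1, 0.15 without DMSO_3 and 0.17 without DMSO_4. The count at p under 0.05 was 0 without DMSO_4 or TBT_2 and 1 without TBT_1 or TBT_3. Egr1, a zinc finger factor, was 8.76 ± 2.21 CPM and 11.8 ± 2.08 CPM (0.42, CI 0.036 to 0.81, or 0.27 without DMSO_3), and Gadd45b, a growth arrest gene, was 14.0 ± 3.26 CPM and 10.4 ± 1.63 CPM (-0.39, CI -0.76 to -0.019).

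Of 10 cell cycle genes tested, 7 were higher and 3 lower in mean, 1 with p under 0.05 (2.79% over all genes), with a median of 0.11, or -0.034 without DMSO_2, 0.040 without TBT_3 and 0.20 without TBT_4. The count at p under 0.05 was 0 without TBT_4 and 2 without DMSO_1, DMSO_3 or TBT_1. Without TBT_1, and also under quantile normalization, 5 were higher and 5 lower, and without DMSO_2 4 were higher and 6 lower. Mki67, a marker of cycling cells, was at 1.59, 1.57, 2.81 and 1.82 CPM in DMSO and 3.26, 2.12, 3.201 and 4.23 CPM in TBT livers, with DMSO_3 above TBT_2 (0.59 ± 0.21, CI 0.14 to 1.05). In the fibrosis and matrix list, 9 of 12 genes were higher and 3 lower in mean, and 0 had p under 0.05, or 1 without DMSO_3 or TBT_1. The median was 0.17, or 0.0036 without TBT_4 and 0.10 without DMSO_3. The best expressed members of the list, Col4a1 of basement membranes and Spp1 of bile duct cells, were 42.9 ± 3.00 and 23.8 ± 2.82 CPM in DMSO and 43.9 ± 5.73 and 28.1 ± 9.09 CPM in TBT livers. For DNA methylation and chromatin, 17 of 24 genes were higher and 7 lower in mean, 0 with p under 0.05, and the median was 0.07, or 0.016 without TBT_4, when 14 were higher and 10 lower. Without TBT_1, 3 had p under 0.05. Dnmt1, the maintenance methyltransferase, was at 9.20, 8.22, 8.501 and 7.36 CPM in DMSO and 7.26, 8.21, 8.31 and 12.7 CPM in TBT livers, so 3 TBT livers lay within or just under the DMSO range and TBT_4 above it (0.10, CI -0.25 to 0.45). Mat1a, which makes the methyl donor in liver, was 7509 ± 1628 CPM and 6362 ± 815 CPM (CI -0.62 to 0.17), and Bhmt, which remethylates homocysteine, was 2749 ± 1219 CPM and 2231 ± 294 CPM (CI -0.74 to 0.33).

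The circadian clock list had 10 of 18 genes higher and 8 lower in mean, 0 with p under 0.05, and a median of 0.01. The log2 differences ran from -0.13 to 0.58. By liver, the mean deviation of the list ran from -0.24 in DMSO_3 to 0.26 in TBT_4. Clock was 141 ± 7.33 CPM in DMSO and 142 ± 7.61 CPM in TBT livers (CI -0.19 to 0.20), and Nr1d2, a repressor of the loop, was 93.0 ± 21.3 CPM and 93.98 ± 28.9 CPM (CI -0.46 to 0.44). Of 7 nuclear noncoding RNAs, 4 were higher and 3 lower in mean, 0 with p under 0.05, with a median of 0.0086. Quantile normalization gave 6 higher and 1 lower, and without DMSO_2 or TBT_1 1 had p under 0.05. Rn7sk, which holds the elongation factor P-TEFb, was 11672 ± 1729 CPM and 11033 ± 5118 CPM (CI -0.75 to 0.41), and Rpph1, the RNA of RNase P, was 6473 ± 998 CPM and 6136 ± 1487 CPM (CI -0.53 to 0.34).

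**Figure D4:**
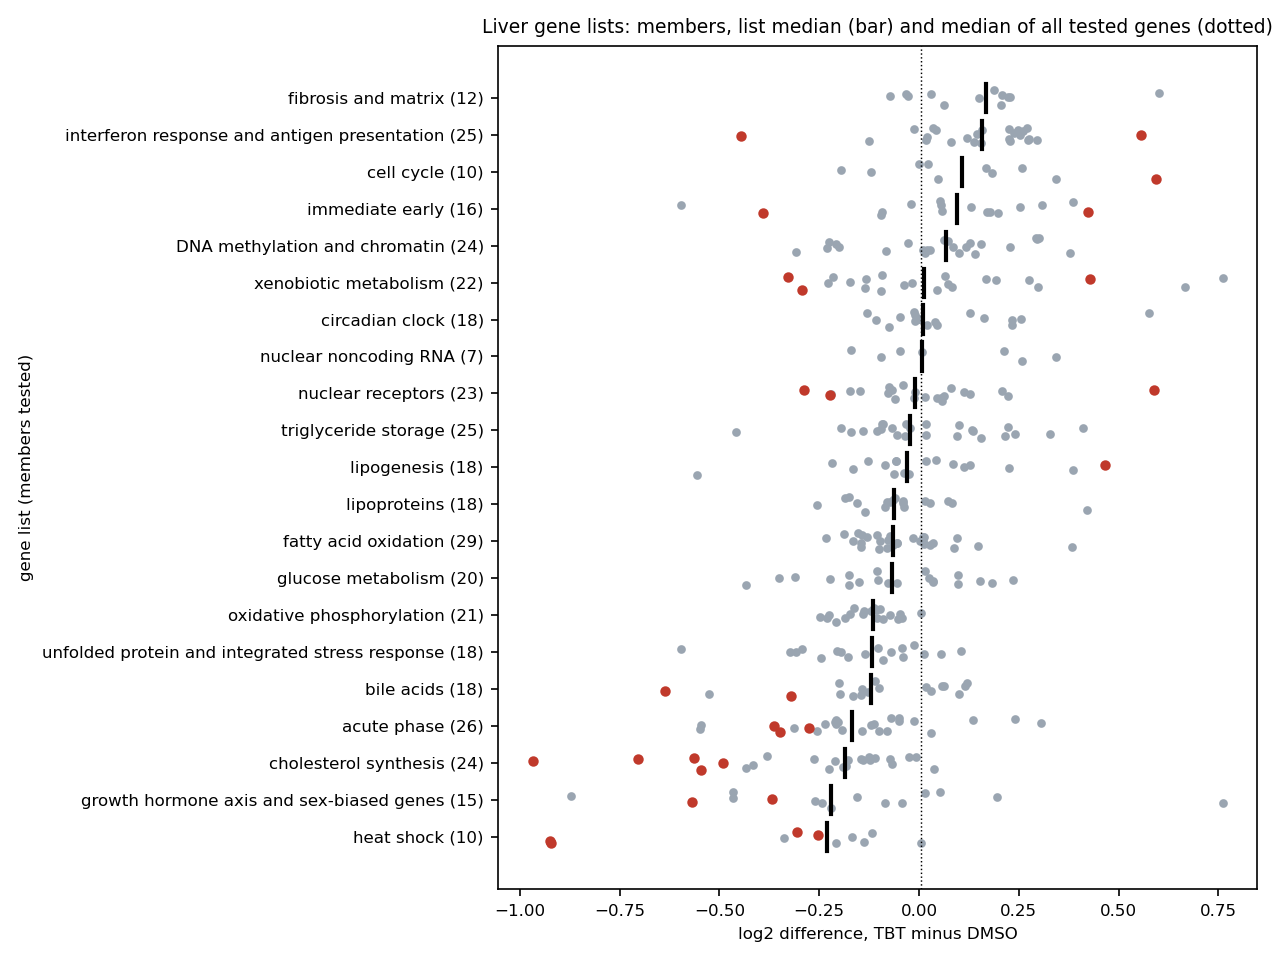
Log2 difference (TBT minus DMSO, x axis) of the tested members of 21 gene lists (rows, with the number tested), with members at an unadjusted p under 0.05 in red, the list median as a black bar and the median of all 12685 tested genes as a dotted line. Medians run from -0.23 for heat shock to 0.17 for fibrosis and matrix, and no member passed the adjusted threshold.

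Markers of other liver cells were compared by their sum. In bulk liver, fewer cells of a type and less RNA per cell cannot be told apart. Kupffer cell and macrophage markers, 10 of 10 tested, all had a lower mean in TBT livers, with a median log2 difference of -0.36 and 1 at p under 0.05 (2.79% over all genes), C1qb. The count at p under 0.05 was 5 without TBT_1, 4 without DMSO_2, 2 without TBT_3 and 0 without DMSO_3 or TBT_2. Their sum was 300.3, 235, 487 and 299 CPM in DMSO and 325, 185, 264 and 238 CPM in TBT livers. The groups overlapped, and the DMSO sum was led by DMSO_3, where the scavenger receptor Marco, named after its values were seen, was at 58.5 CPM beside 3.40 to 7.61 CPM in the other DMSO livers. Without DMSO_3, 8 of the 10 had a lower mean in TBT and the median was -0.13. Endothelial markers summed to 212 to 298 CPM in DMSO and 174 to 271 CPM in TBT livers, and stellate cell markers to 306 to 378 CPM and 302 to 391 CPM. Cholangiocyte markers summed to 30.9 to 36.7 CPM and 31.3 to 52.9 CPM, with TBT_4 highest. B and plasma cell markers summed to 5.30 to 15.8 CPM in DMSO and 6.09 to 14.2 CPM in TBT livers, those of monocytes and neutrophils to 38.5 to 109.8 CPM and 37.5 to 61.6 CPM, red cell markers to 124 to 249 CPM and 145 to 423 CPM, and adipocyte markers to 204 to 349 CPM and 214 to 464 CPM. Within hepatocytes, pericentral markers summed to 5955 to 7527 CPM and 6382 to 7537 CPM, and periportal markers to 5127 to 6911 CPM and 4808 to 5720 CPM. All of these ranges overlapped between the groups. Nearly all of the adipocyte sum was Car3, at 202 to 341 CPM in DMSO and 211 to 463 CPM in TBT livers (0.21, CI -0.30 to 0.72). Cfd, the other adipocyte marker tested, went the other way, at 2.52 ± 1.81 and 1.11 ± 0.661 CPM (-0.83, CI -1.63 to -0.033). Its unadjusted p by limma was under 0.05, but not without DMSO_1, DMSO_2, TBT_2 or TBT_4. Car3 and Cfd were named after their values were seen.

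**Figure D5:**
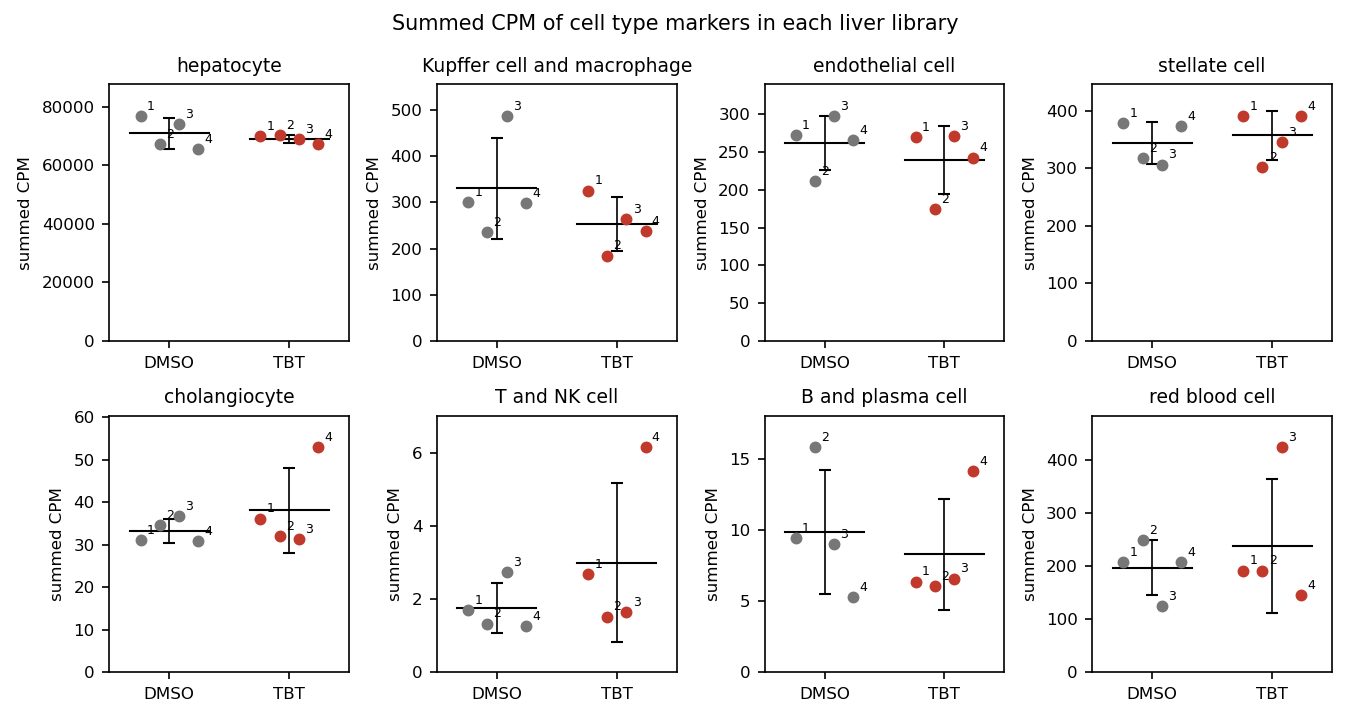
Summed CPM of the markers of 8 cell types in each F4 male liver library, with points numbered by replicate, group means as lines and SD as error bars (n = 4 per group; each y axis starts at 0). The groups overlap for each cell type shown, DMSO_3 stands high for Kupffer cell markers and TBT_4 for T cell and bile duct markers.

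The spread of a gene can also be taken over all tissues of the series. When all 48 RNA-seq libraries entered 1 limma fit, 68 of the 12685 genes (0.536%) had an adjusted p under 0.05 for liver, 31 higher and 37 lower in TBT, and 29 of them had groups that do not overlap. This fit takes the spread in liver to equal that in the 40 MSC libraries. Of the 68 genes, 46 (67.6%) had a mean under 1 CPM in the MSC libraries, beside 9.49% of all genes tested in liver, and a gene near 0 there has little spread to lend. At an unadjusted p under 0.05 the fit had 1170 of the 12685 genes, the share that the list counts below stand beside. The limit on the spread lent by MSCs holds for these counts as well. Each MSC library was also a pool of 3 animals, while each liver library was 1 mouse. By list, these were 8 of 22 in xenobiotic metabolism, 7 of 21 in oxidative phosphorylation, 7 of 15 in the growth hormone list and 7 of 26 acute phase genes. Heat shock had 4 of 10, lipoproteins 4 of 18, chromatin 4 of 24, cholesterol synthesis 3 of 24, bile acids 3 of 18 and glucose metabolism 3 of 20. There were 2 of 29 in fatty acid oxidation, 2 of 23 nuclear receptors and 2 of 18 in lipogenesis, all near the share over all genes. The cell cycle, clock, fibrosis and unfolded protein lists had 1 each. The interferon, immediate early, triglyceride storage and noncoding RNA lists had 0. Among the genes named above, the fit called Themis, Hspa1b, Hspa1a, Dnajb1, Osbpl3, Cyp2c40, Tpst1, Serpina11, Mre11a, Plekho1, Cyp7a1, Hsd3b5, Mup20, Cyp2a5 and Apcs, and the gene with no symbol. It did not call Idi1 (adjusted p = 0.224 by limma), Scd1 (0.621) or Por (0.608).

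To ask whether the TBT difference of a gene in liver departed from that in MSCs of F4 males, cells pooled from 3 animals of 8 weeks of age, before any diet challenge (5 TBT and 5 DMSO libraries), an interaction was tested with limma. Of 11473 genes with a mean of at least 1 CPM in both tissues, 0 (0%) had an adjusted p under 0.05, and 971 had an unadjusted p under 0.05. The smallest adjusted p was 0.213. Tissue, age, diet and pooling differ together between these groups and cannot be told apart. For Hspa1b the log2 difference was -0.92 in liver and 0.23 in MSCs (interaction, adjusted p = 0.497), and for Plekho1 it was -0.53 in liver and 0.14 in MSCs (adjusted p = 0.213). For Scd1 it was 0.47 in liver and 0.0033 in MSCs (interaction, adjusted p = 0.691), and for Idi1 it was -0.97 and 0.08 (adjusted p = 0.565).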

How the data were processed

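Whole-liver RNA was made into rRNA-depleted directional libraries, 1 mouse per library, from mice of different litters, so p-values measure the spread between mice. The authors assigned uniquely mapped reads to GRCm38 genes with featureCounts, without strand and for every gene a read overlapped, and deposited signal values, CPM on TMM-scaled library sizes from edgeR 3.20, for 5 tissues in 1 table. The aligner of these reads is not given in the sources used here. Columns with the authors' own comparisons (fold change, mean level, test statistic, p and FDR) were not used, and 0 columns of per-sample values were left without a sample. Gene names came from RefSeq, which matched 25275 of 27179 gene IDs. Each value was a whole multiple of 1 read within 0.1 reads, which gave the reads per library.

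Log2(CPM + 0.5) of the 8 liver libraries was fitted with limma 3.58.1 in R 4.3.3, with moderated variances and a mean trend, for genes with a mean of at least 1 CPM, and p was adjusted by Benjamini-Hochberg at 0.05. The test of liver against F4 male MSCs used the same model with an interaction. Fits were tested on simulated data. Named genes were the 10 higher and 10 lower genes with the smallest p among those whose groups do not overlap, the members of each list with p under 0.05 (otherwise the 2 best expressed), receptors and lead genes, and albumin. Members and lists were chosen with earlier results of these data known. Replicate numbers did not pair the livers. Alternatives were other pseudocounts, filters, normalizations and variance models, equal depth, a replicate block, each library left out, and limma-voom. Some genes of these lists count in the totals but are not reported here by name.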

Additional observations from a re-analysis of the deposited data

Results flagged for a closer look

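In 12 of 182 groups of 4 livers checked (6.59%), over the named genes and the marker sums, 1 library lay far from the other 3 by Dixon's test, where chance gives about 1 in 20. In DMSO_1, Itih3 was 831 CPM beside 734 to 743 CPM in the other DMSO livers, and Rpph1 was 4993 CPM beside 6756 to 7100 CPM. In DMSO_2, Fdps was 20.3 CPM beside 11.5 to 12.3 CPM. In DMSO_4, Cyp2c40 was 4.90 CPM beside 1.27 to 1.72 CPM, and Cd36 was 107 CPM beside 159 to 167 CPM.

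In TBT_1, Osbpl3 was 8.08 CPM beside 11.6 to 12.2 CPM in the other TBT livers, Por was 193 CPM beside 224 to 227 CPM, Bhmt was 2672 CPM beside 2054 to 2106 CPM, and mesothelium markers summed to 0.877 CPM beside 0.816 to 0.820 CPM. In TBT_3, red blood cell markers summed to 423 CPM beside 145 to 192 CPM. In TBT_4, Sqle was 13.0 CPM beside 5.00 to 5.51 CPM, and B and plasma cell markers summed to 14.2 CPM beside 6.09 to 6.60 CPM.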

How the results depend on the processing

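By limma, the count of genes called in liver was 0 under other pseudocounts, filters, quantile normalization, no mean trend and limma-voom, the last chosen after seeing the data. It was 68 with all 48 libraries in 1 fit, 1 (Themis) with reads thinned to the smallest library, and 0 to 1 with 1 library left out, where the count at unadjusted p under 0.05 ran from 204 to 1108, the highest without TBT_1. The interaction count was 0 to 1 with 1 library left out, with Plekho1 called without DMSO_2 (adjusted p = 0.0149). Same-numbered livers had correlations of -0.12 to 0.20, so the numbers were not taken as pairs, and a replicate block gave 0 called genes in liver (365 at unadjusted p under 0.05) and 0 for the interaction (782). With the block, the genes at unadjusted p under 0.05 were 4 instead of 2 in the growth hormone list, 4 instead of 1 among Kupffer cell markers, 2 instead of 1 in lipogenesis, 2 instead of 0 in triglyceride storage and 1 instead of 3 among nuclear receptors. The planned count tests, edgeR's quasi-likelihood test and DESeq2, were not run. With 1 library left out, the median difference of a list ran from -0.046 to 0.035 for lipogenesis, -0.064 to 0.062 for triglyceride storage, -0.111 to -0.024 for fatty acid oxidation, -0.114 to -0.012 for lipoproteins, -0.058 to 0.050 for xenobiotic metabolism, -0.036 to 0.0088 for nuclear receptors, -0.033 to 0.12 for the clock and -0.045 to 0.22 for noncoding RNA. Quantile normalization moved the median to 0.00044 for triglyceride storage, -0.00026 for lipogenesis, -0.065 for bile acids, -0.038 for glucose metabolism, 0.064 for xenobiotic metabolism, 0.070 for the cell cycle, 0.024 for the clock and 0.041 for noncoding RNA. Thinned reads gave 0.034 for chromatin, 0.069 for the cell cycle and 0.11 for fibrosis and matrix, and a filter at 5 CPM gave 0.026 for chromatin, 0.15 for immediate early genes, -0.028 for xenobiotic metabolism and -0.019 for noncoding RNA.

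Of 1429 values of the 76 named genes over 19 alternatives, 1361 kept direction and side of the threshold, 17 passed the threshold only under the alternative, and 51, in 22 genes, changed sign. No named gene passed the threshold in the main fit, and the alternatives reuse the same livers. Genes picked for separation must keep their sign when 1 library is left out. The count of 1361 is therefore not a test of stability. With 1 library left out, the log2 difference ran from -0.0040 to 0.31 for Spp1, -0.39 to 0.049 for Bhmt, -0.063 to 0.19 for Dnmt1, -0.15 to 0.00097 for Cpt1a, -0.016 to 0.099 for Ppara, -0.13 to 0.014 for Nr1h2, -0.22 to 0.020 for Rpph1, -0.11 to 0.26 for Fabp1, -0.12 to 0.19 for Pparg, -0.18 to 0.068 for Hsp90b1 and -0.14 to 0.0073 for Apoe. It ran from -0.40 to 0.062 for Cidec, -0.11 to 0.032 for Cyp4a14, -0.055 to 0.074 for Col4a1, -0.18 to 0.10 for Srebf1, -0.077 to 0.19 for Rxrg, -0.28 to 0.15 for G6pc, -0.11 to 0.19 for Pck1, -0.031 to 0.077 for Alb, -0.11 to 0.075 for Rxra, -0.19 to 0.18 for Nr1d2 and -0.020 to 0.041 for Clock. Without a change of sign, it ran from 0.0032 to 0.32 for Plin2, -0.45 to -0.0060 for Rn7sk, -0.40 to -0.11 for Hspa5, -0.31 to -0.086 for Mat1a, -0.12 to -0.042 for Apob, -0.28 to -0.14 for Atp5b and -0.21 to -0.11 for Nr1h3. Quantile normalization gave 0.0024 for Cpt1a, 0.041 for Rpph1, 0.016 for Hsp90b1, 0.060 for Apoe, 0.037 for Cyp4a14, 0.014 for Rxra and 0.0052 for Nr1d2, and, with the sign kept, -0.063 for Atp5a1 and -0.10 for Atp5b, and thinning gave -0.010 for Clock. The cause of these changes was not tested. Depth differed between the groups, and genes under 1 CPM were not tested.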

Other observations

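The major urinary proteins, pheromone carriers that male liver secretes in bulk, were looked at as a family after their values were seen. All 18 genes tested had a lower mean in TBT livers, with log2 differences of -0.98 to -0.09, and the smallest unadjusted p by limma was 0.0236. The fit over all 48 libraries called 6 of the 18, all lower, beside 0.536% of all genes tested. Those 6 had means of at most 0.0019 CPM in the MSC libraries, where they have little spread to lend to that fit. Their summed level was 26415, 43061, 27994 and 47911 CPM in DMSO and 34322, 23138, 23609 and 27941 CPM in TBT livers. The groups overlapped, with DMSO_2 and DMSO_4 high. The genes are near-identical copies, so the reads of single members are uncertain.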
